A study of Rattus norvegicus with 6 samples.

Results

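The cyclin-dependent kinase (CDK) inhibitors of the Cip/Kip and INK4 families were followed in cultured rat oligodendrocyte precursor cells (OPCs) treated with ZJU-37. The 7 inhibitor genes were taken by name from a table of 32883 genes, and the family was chosen on the fall of Cdkn1c, which was known beforehand. For 6 of the 7 a count was available, namely Cdkn1a, Cdkn1b and Cdkn1c of the Cip/Kip family and Cdkn2a, Cdkn2b and Cdkn2c of the INK4 family, and Cdkn2d was not analysed here. With ZJU-37, Cdkn1c mRNA dropped 15.4-fold and went from rank 2 to rank 6 of the inhibitors per unit of gene length. Cdkn2c rose 1.95-fold, Cdkn1a was higher in the test that pairs the libraries alone, and Cdkn1b, Cdkn2a and Cdkn2b passed no test.

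ZJU-37 is a small-molecule inhibitor of the kinase RIPK1. The RNA-seq compared OPCs given 5 µM ZJU-37 with OPCs given an equal volume of its solvent DMSO. Both were treated for 36 h according to the sample labels and a figure legend of the study, whereas its methods give another duration. OPCs of both groups came from the cortices of 2 Sprague Dawley rats at postnatal day 0 and were shaken off a mixed glial culture, and the labels name no genetic change in either group. Each group had 3 libraries, which the study's methods call biological repeats and a figure legend of the study calls plate wells. Since the labels do not say that these came from separate cultures, p-values measure only the spread between the libraries, which may be technical. The counts summed to between 13935865 and 24097927 per library, at which 3 counts equal 0.124 to 0.215 CPM (counts scaled to the size of the library), a limit that covers counting error only.

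CDK inhibitors are small proteins that hold the cell cycle back in G1. INK4 proteins bind Cdk4 and Cdk6 and keep D-type cyclins from them, whereas Cip/Kip proteins bind complexes of cyclins with CDKs, above all those of Cdk2, and can also help cyclin D to assemble with Cdk4. In the oligodendrocyte lineage p27Kip1 and p57Kip2, the products of Cdkn1b and Cdkn1c, are known for their part in the withdrawal of precursors from the cell cycle, which precedes differentiation.

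A promoter sequence was found for 6 of the 7 genes in RefSeq (build GRCr8, 250 bases before to 50 after the start), with none for Cdkn1c. The promoter of Cdkn2c, the INK4 gene that rose, is shown because it carries a short motif of E2F, the factors that drive entry into S phase. It lies at chr5:129644842-129645141 on the minus strand, and its capitals mark GCGGGAA, a form of the E2F motif.
Cdkn2c: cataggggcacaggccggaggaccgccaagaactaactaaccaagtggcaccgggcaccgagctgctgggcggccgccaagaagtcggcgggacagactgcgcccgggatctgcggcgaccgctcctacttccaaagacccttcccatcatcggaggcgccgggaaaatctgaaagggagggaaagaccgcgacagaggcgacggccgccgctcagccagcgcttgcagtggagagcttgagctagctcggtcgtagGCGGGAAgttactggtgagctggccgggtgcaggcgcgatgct
Both strands were searched in each window, and the motif was not found in the windows of the other 5 members. GCGGGAA was present in 4.21% of 33469 rat promoters of the same length. Such a match of letters is a description and not a binding site shown in these cells.

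Cdkn1c encodes p57Kip2, an imprinted inhibitor expressed from the maternal allele (ENSRNOG00000059500, listed at chr1:216661080-216663721 on the minus strand, build not given in the sources used here). It had 2391, 3349 and 3086 counts in DMSO replicates 1, 2 and 3, and 264, 202 and 248 counts in ZJU-37 replicates 1, 2 and 3. On the CPM scale, after trimmed mean of M-values (TMM) normalization, this was 175, 189 and 164 with DMSO against 14.3, 9.80 and 10.3 with ZJU-37. Every ZJU-37 library lay far below every DMSO library, with over 200 counts in each, so that the low level was itself well measured. The means were 176 ± 12.7 and 11.4 ± 2.46 CPM (SD, n = 3 libraries each), a 15.4-fold lower level with ZJU-37. The log2 fold change from edgeR was -3.95 with a standard error of 0.16, and -3.60, -4.26 and -3.98 within the pairs of replicate 1, 2 and 3. No p-value is given for Cdkn1c, because its fall in this contrast led to the choice of the family. Among the 14670 genes tested, 6 had a log2 fold change of this size or larger in either direction, Cdkn1c included. In bulk RNA of this kind, fewer cells that express a gene and less of its RNA per cell cannot be told apart.

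Cdkn1b encodes p27Kip1, the closest relative of p57Kip2 in function (ENSRNOG00000007249, chr4:168689163-168693964, plus strand). Its level was 121, 112 and 109 CPM in the DMSO libraries and 123, 120.2 and 121 CPM in the ZJU-37 libraries, with the groups overlapping. The means of 114 ± 6.27 and 121 ± 1.53 CPM (SD, n = 3 libraries each) gave a log2 fold change of 0.09 with a 95% interval from -0.05 to 0.24 (edgeR, adjusted p = 0.369). The lower bound of -0.05 set the largest fall that this interval holds for Cdkn1b, beside the -3.95 of Cdkn1c.

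Cdkn1a encodes p21Cip1, an inhibitor that arrests the cycle after DNA damage (ENSRNOG00000000521, chr20:6351458-6358864, plus strand). The DMSO libraries had 270, 377 and 377 CPM and the ZJU-37 libraries 357, 487 and 494 CPM, so that ZJU-37 replicate 1 lay below DMSO replicates 2 and 3. In both groups replicate 1 was the lowest library. The means were 341 ± 61.9 and 446 ± 77.2 CPM (SD, n = 3 libraries each), and the log2 fold change of 0.39 had a 95% interval from -0.04 to 0.81 (edgeR, adjusted p = 0.217). Once the replicate number was included as a block, the log2 fold change was again 0.39, its interval narrowed to 0.28 to 0.50 and edgeR gave an adjusted p-value of 2.37e-04. The differences within the pairs were 0.40, 0.37 and 0.39 on the log2 scale, higher with ZJU-37 in 3 of 3 pairs.

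Among the INK4 genes, Cdkn2c, which encodes p18INK4c, rose (ENSRNOG00000008956, chr5:129347732-129352886, minus strand). It had 274, 348 and 331 counts with DMSO and 730, 741 and 874 counts with ZJU-37, or 20.0, 19.7 and 17.6 CPM against 39.5, 35.9 and 36.1 CPM. All 3 ZJU-37 libraries stood above all 3 DMSO libraries. The means were 19.1 ± 1.32 and 37.2 ± 1.99 CPM (SD, n = 3 libraries each), a ratio of 1.95. The log2 fold change was 0.96 with a standard error of 0.09 and a 95% interval from 0.76 to 1.17 (edgeR, adjusted p = 7.05e-04), and 0.98, 0.87 and 1.04 within the 3 pairs. The Cdkn2c promoter is the sequence printed above with the GCGGGAA match, whose first base is base 8 after the start.

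Cdkn2a and Cdkn2b lie 4.776 kb apart on the minus strand of chromosome 5, at chr5:107823330-107841175 and chr5:107845951-107858104, and arose as related copies, so that reads from shared stretches could be assigned to either or to neither. Cdkn2a (ENSRNOG00000059837) encodes p16INK4a and, in another reading frame, the ARF protein, and a single count for the gene cannot separate them. It was low and variable, with 113, 104 and 242 counts with DMSO (8.25, 5.88 and 12.8 CPM) and 199, 195 and 304 counts with ZJU-37 (10.8, 9.46 and 12.6 CPM). The groups overlapped, and the log2 fold change of 0.28 had a 95% interval from -0.40 to 0.96 (edgeR, adjusted p = 0.591), while pairing by replicate number gave 0.33 with an interval from -0.01 to 0.66 (adjusted p = 0.125). Cdkn2b (ENSRNOG00000006735), which encodes p15INK4b, had 35.6, 34.0 and 39.7 CPM with DMSO and 30.1, 42.9 and 46.3 CPM with ZJU-37. Its groups overlapped as well, with the lowest library of all being ZJU-37 replicate 1. The log2 fold change of Cdkn2b was 0.13, with a 95% interval from -0.26 to 0.52 (edgeR, adjusted p = 0.667), and -0.24, 0.34 and 0.22 within the pairs.

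**Figure D1:**
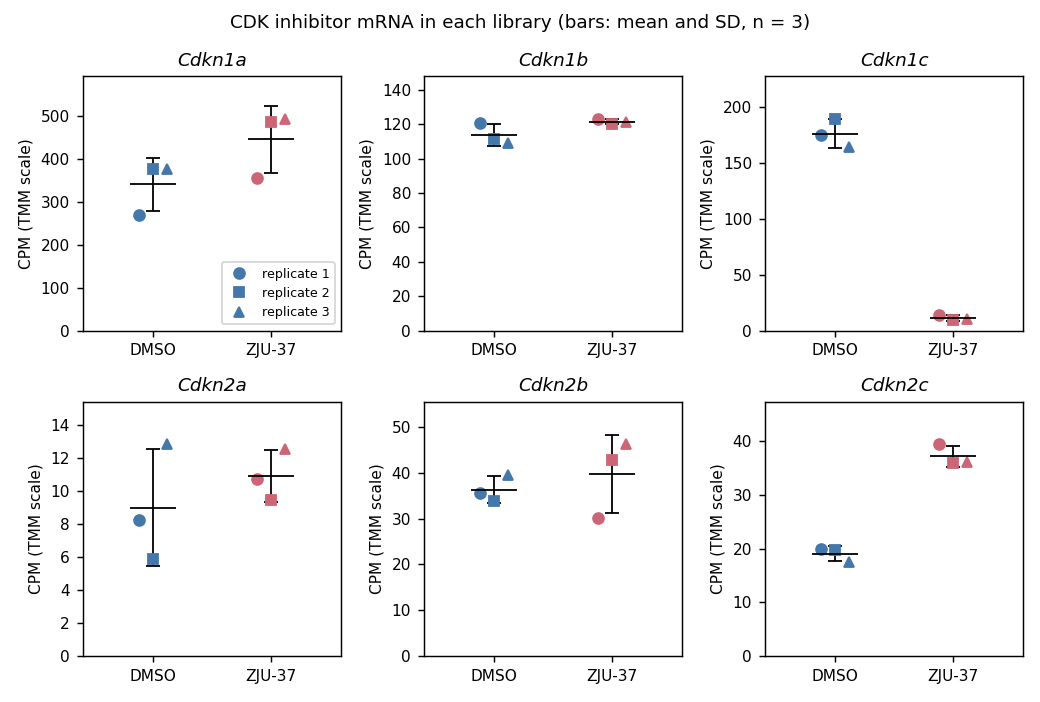
Level of each CDK inhibitor mRNA in CPM on the TMM scale (vertical axis, from 0) in the 3 DMSO libraries (blue) and the 3 ZJU-37 libraries (red), with the mean and SD as bars and the marker shape giving the replicate number. Cdkn1c dropped from a mean of 176 to 11.4 CPM and Cdkn2c stood at 37.2 against 19.1 CPM, each without overlap of the groups, while the libraries of the other 4 genes overlapped.

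Of the 5 inhibitors other than Cdkn1c, 1 rose with ZJU-37 and 0 fell (edgeR, adjusted p-value under 0.05, with the same counts unadjusted and in DESeq2 and limma-voom), where 9.43% of all tested genes rose and 5.58% fell. With the replicate block, 2 of the 5 were higher, Cdkn1a and Cdkn2c, and 0 were lower, against 16.2% and 15.9% of all tested genes. The log2 fold change was above 0 for all 5, whether or not they passed, with a median of 0.28 beside -0.03 for all tested genes. The groups did not overlap for 1 of the 5, against 35.2% of all tested genes. With 5 genes, these counts cannot be set apart from the shares of all genes. The difference between the log2 fold change of Cdkn1c and that of another inhibitor was smallest for Cdkn1b, at -4.04, and widest for Cdkn2c, at -4.91, both given as descriptions because the family was chosen on the fall of Cdkn1c.

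Levels were set between genes only per unit of gene length, as the deposited FPKM (fragments scaled to gene length and library size). In DMSO-treated OPCs, Cdkn1a was the highest at 174 ± 32.2 FPKM, followed by Cdkn1c at 85.7 ± 6.56 and Cdkn1b at 64.5 ± 3.38 FPKM (SD, n = 3 libraries), and the libraries of these neighbours did not overlap. Cdkn2c at 13.3 ± 0.927, Cdkn2a at 9.77 ± 3.83 and Cdkn2b at 6.41 ± 0.502 FPKM came next, and each of these overlapped its neighbour in the order. Cip/Kip mRNA was thus more abundant than INK4 mRNA in every DMSO library. In ZJU-37-treated OPCs the order ran from Cdkn1a at 227 ± 37.1 and Cdkn1b at 68.8 ± 1.61 over Cdkn2c at 25.8 ± 1.67 and Cdkn2a at 11.9 ± 1.67 to Cdkn2b at 6.99 ± 1.44 and Cdkn1c at 5.57 ± 1.27 FPKM (SD, n = 3 libraries). Only the last 2 of these, Cdkn2b and Cdkn1c, overlapped. Cdkn1c had thus moved from rank 2 to rank 6, and the ranks were the same when TMM-scaled counts per kilobase replaced FPKM.

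The ratio of Cdkn1c to its relatives was taken within each library. Cdkn1c FPKM stood at 1.24, 1.46 and 1.29 times Cdkn1b FPKM in the DMSO libraries and at 0.0996, 0.0701 and 0.0727 times in the ZJU-37 libraries. Against Cdkn2c the same ratio went from 6.12, 6.75 and 6.54 to 0.254, 0.191 and 0.199, so that the order of the pair turned over in every library. Of the FPKM summed over the 6 inhibitors, Cdkn1c made up 26.6%, 24.7% and 21.8% with DMSO and 2.29%, 1.31% and 1.34% with ZJU-37. Cdkn1a made up 42.9%, 51.5% and 52.4% with DMSO and 60.0%, 68.2% and 67.7% with ZJU-37. It was the larger part of the pool in every treated library, as in DMSO replicates 2 and 3. Because the pool includes Cdkn1c, the fall of Cdkn1c alone raises the share of every other inhibitor. The level of Cdkn1a itself overlapped between the groups. The share of Cdkn2c went from 4.34%, 3.65% and 3.33% to 9.04%, 6.86% and 6.73%. The sum over the 6 was 354 ± 30.5 FPKM with DMSO and 346 ± 34.1 FPKM with ZJU-37 (SD, n = 3 libraries each), a difference within the spread of the libraries. Without Cdkn1c the sum was 268 ± 29.3 and 340 ± 35.4 FPKM, and the 3 INK4 genes alone gave 29.4 ± 3.49 and 44.7 ± 2.02 FPKM. These sums describe mRNA, and protein was not measured here.

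**Figure D2:**
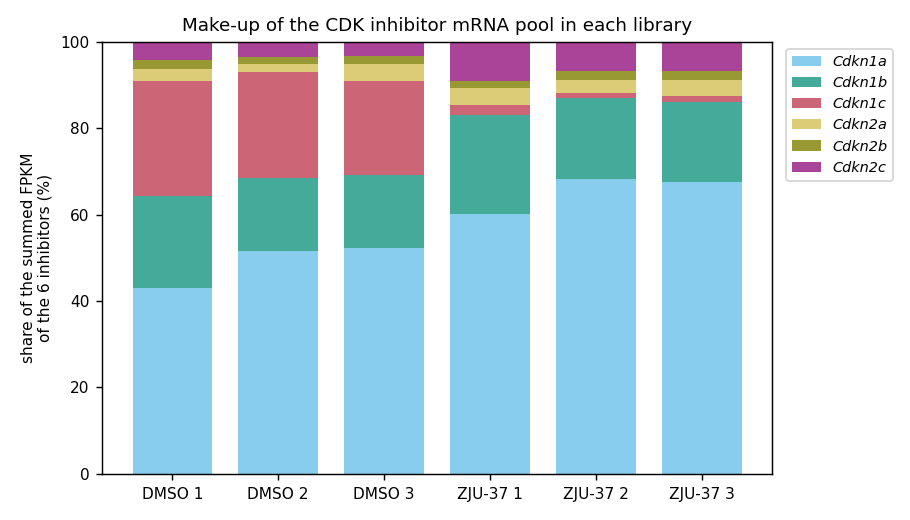
Share of each gene in the summed FPKM of the 6 CDK inhibitors (vertical axis, percent) in each of the 6 libraries. Cdkn1c (red) shrank from between 21.8% and 26.6% of the pool with DMSO to at most 2.29% with ZJU-37. The shares of Cdkn1a and Cdkn2c were larger in each ZJU-37 library than in each DMSO library. A fall of Cdkn1c alone raises the shares of the other genes, since the pool includes it.

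Among the kinases and D-type cyclins that INK4 proteins act on, 3 of 5 tested genes were higher and 0 lower in edgeR (2 higher in limma-voom), beside 9.43% and 5.58% of all tested genes, with a median log2 fold change of 0.40. At an unadjusted p-value under 0.05 the counts were also 3 and 0, and DESeq2 gave 3 and 0. Ccnd1, the gene of cyclin D1, rose from 566 ± 31.9 to 1466 ± 145 CPM (SD, n = 3 libraries each), which is 1.37 on the log2 scale (edgeR, adjusted p = 4.10e-04). Ccnd2 rose by 0.90 on the log2 scale (adjusted p = 0.0071) and Cdk6 by 0.40 (adjusted p = 0.0465). Cdk4 and Ccnd3 had log2 fold changes of 0.10 and 0.05 with adjusted p-values of 0.350 and 0.782. All 7 tested targets of the Cip/Kip proteins were higher, with a median of 0.90. Among these were Cdk2 itself with a log2 fold change of 0.72, its partners Ccne1 and Ccne2 with 0.62 and 0.83, and Ccnb1 and Ccna2, cyclins of mitosis and of S phase, with 1.29 each.

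Pocket proteins, which the kinases inactivate, and the E2F factors they hold back gave 7 higher and 1 lower of 12 tested, with a median of 0.40. Of all tested genes 9.43% were higher and 5.58% lower, and 1 lower gene cannot be set apart from that share. With the replicate block 9 were higher and 1 lower, beside 16.2% and 15.9% of all tested genes. E2f8 and E2f7, the repressor E2Fs that are themselves induced late in G1, rose by 1.32 and 1.26 on the log2 scale. Rbl2, the pocket protein p130 of resting cells, was the gene that fell, with a log2 fold change of -0.28 (edgeR, adjusted p = 0.0206). All 12 proliferation markers rose, beside 9.43% of all tested genes, from 0.81 to 1.59 with a median of 1.23. Rrm2 led at 1.59 and Cenpf followed at 1.39, and Mki67 rose by 1.32. Cdkn2c moved in the same direction as these lists, and Cdkn1c in the other.

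Of 16 genes for the turnover of the inhibitors, 4 were higher and 0 lower in edgeR, beside 9.43% and 5.58% of all tested genes, with a median of 0.02. With the replicate block 5 were higher and 2 lower, beside 16.2% and 15.9% of all tested genes, so that the lower count was near the share of all genes. At an unadjusted p-value under 0.05, 3 were lower, and DESeq2 and limma-voom gave 0 lower at the adjusted threshold. Those that rose included Skp2 and Cks1b, the receptor and cofactor that mark p27Kip1 for degradation, with log2 fold changes of 0.64 (edgeR, adjusted p = 0.00525) and 0.81 (adjusted p = 4.64e-04). Dtl, which directs the destruction of p21Cip1 in S phase, rose by 1.44, and Cdc20, an activator of the anaphase-promoting complex, by 1.22. Cdkn1b and Cdkn1a, whose proteins these factors act on, had log2 fold changes of 0.09 and 0.39 themselves.

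Of 26 tested regulators of inhibitor transcription, 7 were higher and 1 lower in edgeR, beside 9.43% and 5.58% of all tested genes, with a median of 0.10. DESeq2 and limma-voom each gave 6 higher, and the replicate block 9. Dnmt1, the maintenance DNA methyltransferase, and Ezh2, the histone methyltransferase of Polycomb complex PRC2, rose by 1.08 and 0.80 on the log2 scale. Bmi1, a Polycomb repressor of the Cdkn2a locus, rose by 0.27, close to the threshold (edgeR, adjusted p = 0.0481), and Cdkn2a itself had no call. Foxo3, an activator of Cdkn1b, fell by 0.27 on the log2 scale (adjusted p = 0.0324), while Foxo1 stood at -0.03. Myc and Mdm2 had values of 0.18 and 0.01 with adjusted p-values of 0.132 and 0.963.

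**Figure D3:**
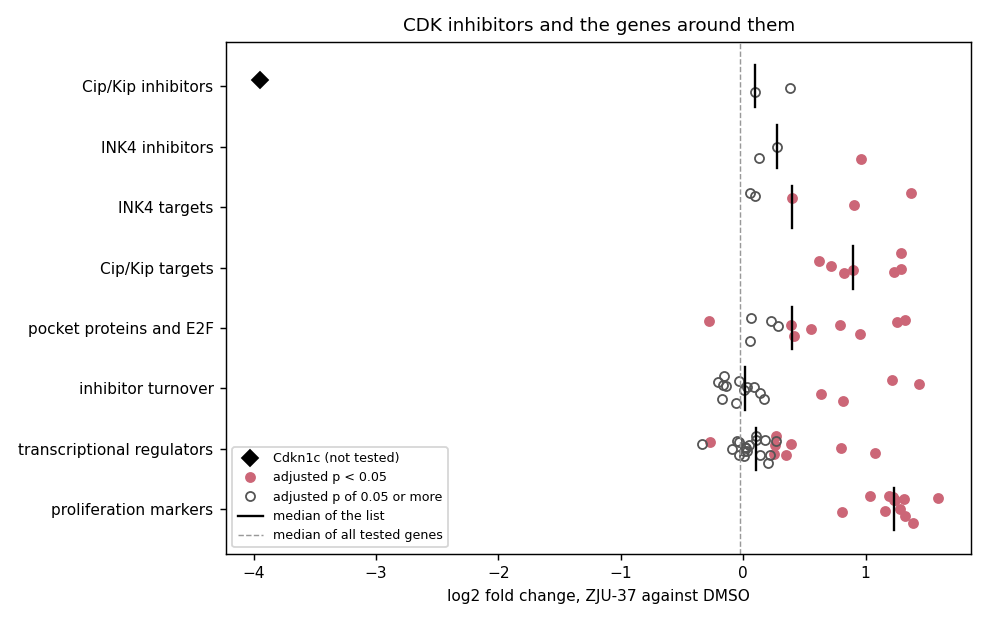
Log2 fold change of ZJU-37 against DMSO (horizontal axis) for each tested gene of the inhibitor families and the lists around them, with filled points for an adjusted p-value under 0.05 in edgeR, a bar for the median of each list and a dashed line for the median of all tested genes. Cdkn1c at -3.95 stands apart from every other gene shown, while the 12 proliferation markers lie between 0.81 and 1.59.

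Cdkn1c lies in an imprinted domain, where its silencing on the paternal allele is linked to the noncoding RNA Kcnq1ot1. Of 18 genes listed for the wider region around it 10 were tested. Of these 1 was higher and 2 lower, with a median of -0.23, beside 9.43% and 5.58% of all tested genes. The replicate block gave 2 higher and 3 lower, beside 16.2% and 15.9% of all tested genes, DESeq2 gave 1 and 3, and limma-voom 1 and 1. With 10 genes, counts this small cannot be set apart from the shares of all genes. The nearest tested neighbour, Slc22a18, 13.7 kb away, had only 164 counts in the 6 libraries and a log2 fold change of -0.46 (edgeR, adjusted p = 0.393). Nap1l4, at 51.6 kb, had a log2 fold change of 0.19 (adjusted p = 0.0914, and 0.016 with the block). Cars1, which is listed as Cars, lies 95.6 kb away and rose by 0.34 (adjusted p = 0.0189), and Osbpl5 at 203 kb had -0.35 (adjusted p = 0.0497). None of the 4 tested genes within 200 kb of Cdkn1c had a log2 fold change below -0.46. At the far end of the listed region, 814 kb away, the growth factor gene Igf2 was low and fell from 8.51 to 2.10 mean CPM. Its log2 fold change was -2.01 (edgeR, adjusted p = 4.30e-04). The tested genes between Igf2 and Cdkn1c, namely Ascl2, Cd81 and Tssc4 at -0.53, -0.11 and 0.08, were not called. Kcnq1 and Phlda2 had 43 and 9 counts in all and were not tested, and Kcnq1ot1 and H19 were not analysed here.

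Around Cdkn1a, 1 of 6 tested neighbours within 200 kb was higher (Ppil1, 0.35), and 3 of 6 with the replicate block, Stk38 and Srsf3 being added at 0.18 and 0.21. Around Cdkn1b 1 of 5 was higher, the endothelial and early response gene Apold1 at 1.18. Of the 2 tested neighbours of Cdkn2c, none passed without the block and Faf1 did with it (0.19, adjusted p = 0.0341). Around Cdkn2a and Cdkn2b, where each is a neighbour of the other, none passed with or without the block. Of all tested genes, 9.43% were higher in edgeR and 16.2% with the block. With so few neighbours, their counts cannot be set apart from these shares.

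**Figure D4:**
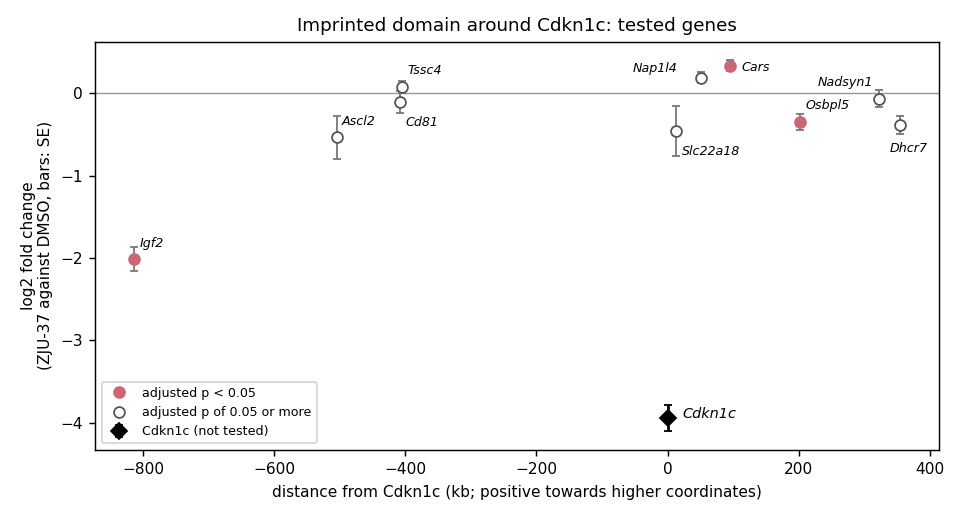
Log2 fold change of ZJU-37 against DMSO with its standard error (vertical axis) for the tested genes of the listed region around Cdkn1c against their distance from it in kilobases (horizontal axis). Cdkn1c at -3.95 and Igf2 at -2.01 lie low, whereas the genes next to Cdkn1c lie between -0.46 and 0.34. The tested genes between Igf2 and Cdkn1c were not called.

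The genes whose values followed those of Cdkn1c most closely over the 6 libraries were Gpr17, Tnr, Lims2, Thsd7b and Snx22, out of 13893 genes compared. Likeness was the root mean square difference of log2 CPM after centring each gene, and it was 0.26 for Gpr17, 0.28 for Tnr, 0.29 for Lims2, 0.38 for Thsd7b and 0.44 for Snx22. Their log2 fold changes were -3.43, -3.48, -3.37, -3.99 and -3.23, close to that of Cdkn1c because the measure follows the same contrast. Gpr17, a receptor of precursors committed to differentiation, had 377, 367 and 329 CPM with DMSO and 43.5, 29.0 and 27.0 CPM with ZJU-37, and Tnr encodes the matrix protein tenascin R. The annotated spans of Gpr17 and Lims2 overlap each other, and that of Tnr overlaps another counted gene, so that these counts are uncertain.

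**Figure D5:**
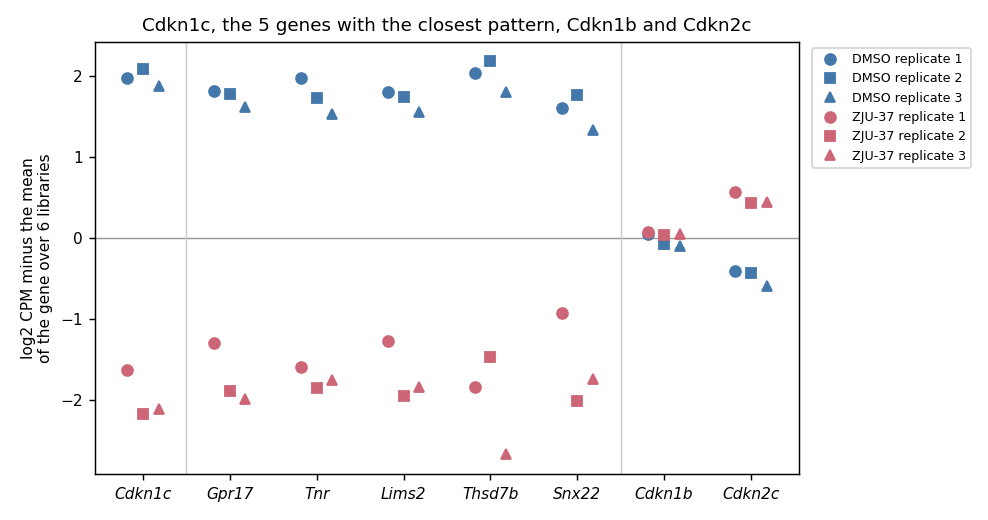
Log2 CPM minus the mean of the gene over 6 libraries (vertical axis) for Cdkn1c, the 5 genes closest to it, and Cdkn1b and Cdkn2c, with 1 point per library. Cdkn1c and the 5 genes were above 0 in all DMSO libraries and below it in all ZJU-37 libraries, Cdkn2c was the opposite, and Cdkn1b stayed near 0.

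Markers of cell types were set beside the fall of Cdkn1c. Among all tested genes, 9.43% were higher and 5.58% lower in edgeR, or 16.2% and 15.9% with the replicate block. Committed oligodendrocyte precursor markers had 7 of 8 lower and 0 higher, with a median of -1.71 and a summed level of 3954 to 5136 CPM in the DMSO libraries against 1318 to 1552 CPM in the ZJU-37 libraries. The log2 fold changes in this list ran from -2.34 to -0.29. Gpr17 was counted among the OPC markers, although it also marks committed precursors. It was found above as the gene closest to Cdkn1c, so its log2 fold change of -3.43 is no separate sign of likeness. Mature oligodendrocyte markers had 1 of 8 lower and 0 higher in edgeR (5 lower with the replicate block, 4 with DESeq2 and 4 at an unadjusted p-value under 0.05), and their sum was 10460 to 21181 CPM against 4473 to 9471 CPM. OPC markers were split, with 5 of 9 higher and 3 lower and sums of 4314 to 5031 and 4690 to 6428 CPM. Pdgfra, the receptor that defines OPCs, rose by 1.10 on the log2 scale, while the 3 lower members were Gpr17 at -3.43, Vcan at -1.29 and Sox10 at -0.61. The part of the lineage stages in the fall of Cdkn1c was not tested.

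Markers of cells outside the oligodendrocyte lineage were detected in both groups. Their counts stand beside 9.43% higher and 5.58% lower of all tested genes in edgeR, and 16.2% and 15.9% with the block. The 11 microglia markers summed to 2470 to 4307 CPM with DMSO and 1800 to 3769 CPM with ZJU-37, with 0 called by edgeR, DESeq2 or limma-voom, 0 at an unadjusted p-value under 0.05, and 6 lower in edgeR with the block. Astrocyte markers gave 1 higher and 1 lower of 9 (2 and 4 with the block) and sums of 1045 to 1679 and 931 to 1392 CPM. Of 6 neuron markers 0 were called by the same tools (1 lower at an unadjusted p-value under 0.05, and 1 with the block), at 658 to 822 and 575 to 760 CPM. Fibroblast and mural cell markers had 0 of 7 called by these tools or at an unadjusted p-value under 0.05 (2 lower with the block) at 77.3 to 149 and 42.4 to 110 CPM, and endothelial markers 1 of 3 lower (2 with the block) at 19.6 to 22.5 and 13.0 to 16.1 CPM, with Cldn5 at 0 in every library. The part of these cell types in the values of the inhibitors was not tested.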

How the data were processed

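Poly-A RNA of cultured rat OPCs was sequenced in 3 DMSO and 3 ZJU-37 libraries, grouped by the sample labels. The authors deposited raw counts per gene, neither normalized nor filtered, and FPKM values made from the counts, gene length and a library total that was 0.979 to 1.03 times the sum of the counts. The submitters' processing notes name HISAT2 2.0.5, StringTie 1.3.3b and featureCounts 1.5.0, and the genome build is not given in the sources used here. The fold changes and p-values of the authors' own comparison were not used.

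Genes with low counts were removed (filterByExpr), TMM factors (0.981 to 1.04) were applied, and the robust quasi-likelihood test of edgeR 4.0.16 was run in R 4.3.3 with the 6 libraries, and p-values were adjusted by Benjamini-Hochberg over 14670 genes, with a threshold of 0.05. The F statistic of each gene gave its standard error. After subtraction of the group means, libraries with the same number correlated across genes with r = 0.39, 0.31 and 0.33 (others -0.27 to -0.01), so the replicate numbers of the labels were taken to pair the libraries. Alternatives were DESeq2 1.42.0, limma 3.58.1 (voom, and log2 FPKM with pseudocounts of 1 and 0.1), 3 other normalizations, other filters, the block and leaving out each library. The code was tested on simulated data. The smallest chi-square between any pair of libraries was 12.1 per degree of freedom, and each library was counted once.

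The members and all lists were chosen with earlier results of these data known, and the motif after the promoter sequences had been seen. Of the regulators and their targets, 1 item and the results that need it are not reported here. Named genes were the members, up to 2 called genes with the largest change per list and direction at a mean of at least 1 CPM, a fixed set of regulators and targets, the 5 genes most like Cdkn1c (log2 CPM, prior count 2) and members of marker lists. Ppil1, Stk38, Srsf3, Apold1 and Faf1, called neighbours of other members, were named after their values were seen. Older gene names were matched through the RefSeq table of assembly GRCr8, whose coordinates are kept apart from those of the deposited table. Intervals are 95% and cover the spread between libraries.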

Additional observations from a re-analysis of the deposited data

How the results depend on the processing

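Over 16 alternatives, the log2 fold change of Cdkn1c ran from -4.11 to -3.74 (without 1 library from -4.11 to -3.82), within the spread of the libraries. Cdkn2c ran from 0.91 to 1.02 and passed the threshold in all 16, with adjusted p-values up to 0.00543. Cdkn1a ran from 0.24 to 0.54 and passed it with the replicate block alone. Cdkn1b (0.06 to 0.14), Cdkn2a (0.05 to 0.63) and Cdkn2b (0.03 to 0.31) passed it in none. The number of other inhibitors past the threshold was 1, and 2 with the replicate block. The paired fit raised the number of all genes past the threshold from 2201 to 4705, and leaving out 1 library gave 1306 to 1927, the lowest without DMSO replicate 2 and 1351 without ZJU-37 replicate 3. With 3 libraries per group, the spread of Cdkn2a and Cdkn2b limits what could be seen for them.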
